A study of Mus musculus with 12 samples.

Results

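Swimming was added to curcumin in mice bearing 4T1-LUC mammary tumours, and the tumour transcriptome of the combination group was set against that of curcumin alone. The comparison takes 6 of the 12 RNA sequencing libraries of the series, 3 combination and 3 curcumin, and every gene of the count table. Of 21899 genes in the table, 13638 had enough counts to be tested. Combination mice received curcumin (100 mg/kg in 200 µL of corn oil by gavage each afternoon) and swam for 30 min, starting 30 min after gavage. Curcumin mice received the same gavage and did not swim. Swimming mice (corn oil gavage and the same swim) and control mice (corn oil gavage, no swim), with 3 libraries each, supplied part of the estimate of spread and the comparison of swimming without curcumin. All were BALB/c mice, 4 to 6 weeks old, carrying 4T1-LUC cells injected subcutaneously at the chest and abdominal wall, so every group is a single cell line in a single strain. The treatment label names the gavage alone for every library, so the groups that swam were identified from the sample titles and the protocol. Nothing in the labels says that replicate libraries are separate tumours, so the p-values reflect the spread among these libraries, which may be technical.

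4T1 is a transplantable mouse mammary carcinoma line that grows in immunocompetent BALB/c hosts. A piece of such a tumour holds carcinoma cells together with host macrophages, neutrophils, lymphocytes, endothelium and fibroblasts. Curcumin is a polyphenol of turmeric. Exercise is known to change blood flow, adrenergic and glucocorticoid signals and circulating leukocytes. Immediate early genes answer such signals within minutes through pre-existing transcription factors, while integrins, Fc receptors and Src-family kinases carry signals in myeloid cells.

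Promoters of 5 called genes are shown because their transcripts moved in this comparison and belong to inducible families: Nr4a1 and Fosb (immediate early genes, higher in combination), Arntl and Tef (clock genes, moving in opposite directions) and Irf1 (an interferon-gamma effector, lower in combination). Each window runs from 250 bases before to 50 bases after a RefSeq transcription start on build GRCm38.p6, written 5′ to 3′ along the gene's strand. Capitals mark a motif selected for each gene and searched on both strands. For Arntl, Tef and Irf1, which have 2 RefSeq windows each, a window that holds the match is shown. They lie at chr15:101266596-101266895 (Nr4a1, plus strand), chr7:19309996-19310295 (Fosb, minus strand), chr7:113207261-113207560 (Arntl, plus strand), chr15:81802423-81802722 (Tef, plus strand) and chr11:53769764-53770063 (Irf1, plus strand).
Nr4a1: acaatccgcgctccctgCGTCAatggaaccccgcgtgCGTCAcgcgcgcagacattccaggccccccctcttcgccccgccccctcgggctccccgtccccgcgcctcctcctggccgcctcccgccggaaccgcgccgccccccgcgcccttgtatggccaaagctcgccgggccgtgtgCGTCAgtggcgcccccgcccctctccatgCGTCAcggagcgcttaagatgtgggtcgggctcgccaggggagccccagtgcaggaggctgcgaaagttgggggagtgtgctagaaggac
Fosb: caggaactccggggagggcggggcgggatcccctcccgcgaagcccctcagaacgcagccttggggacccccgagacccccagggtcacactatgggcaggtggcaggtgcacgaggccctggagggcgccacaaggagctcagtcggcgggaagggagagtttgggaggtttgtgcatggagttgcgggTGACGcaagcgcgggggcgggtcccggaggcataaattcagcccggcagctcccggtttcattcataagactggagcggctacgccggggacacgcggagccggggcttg
Arntl: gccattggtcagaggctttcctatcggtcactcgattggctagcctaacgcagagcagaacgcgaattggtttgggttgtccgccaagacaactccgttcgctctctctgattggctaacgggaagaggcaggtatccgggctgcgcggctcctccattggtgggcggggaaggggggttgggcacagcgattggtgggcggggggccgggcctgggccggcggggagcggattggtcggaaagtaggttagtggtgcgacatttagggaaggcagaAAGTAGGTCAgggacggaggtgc
Tef: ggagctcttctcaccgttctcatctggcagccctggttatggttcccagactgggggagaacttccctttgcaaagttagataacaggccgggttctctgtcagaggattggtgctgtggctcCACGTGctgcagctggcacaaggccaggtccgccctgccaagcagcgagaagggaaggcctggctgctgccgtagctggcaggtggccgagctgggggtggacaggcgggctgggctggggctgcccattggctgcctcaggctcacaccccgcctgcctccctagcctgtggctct
Irf1: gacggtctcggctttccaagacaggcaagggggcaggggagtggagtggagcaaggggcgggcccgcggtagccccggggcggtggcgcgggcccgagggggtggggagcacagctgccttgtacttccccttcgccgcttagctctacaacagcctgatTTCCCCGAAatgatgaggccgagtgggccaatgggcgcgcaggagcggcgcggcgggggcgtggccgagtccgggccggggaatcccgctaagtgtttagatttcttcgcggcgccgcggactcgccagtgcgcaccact

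The Nr4a1 window held 4 copies of TGACG, the half-site of the cyclic AMP response element, each read on the strand opposite to the gene, and the Fosb window held 1. Of 32851 windows of 300 bases, 20.8% held at least 1 TGACG. The Arntl window held an extended ROR element, the site of ROR and REV-ERB receptors, which 0.606% of windows hold. The Tef window held CACGTG, the E-box of the clock activators, which 7.15% of windows hold. The Irf1 window held TTCNNNGAA, the gamma-activated sequence read by STAT dimers, which 8.3% hold. These are matches of letters in a window, and binding was not measured.

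Depth was similar in all 12 libraries, at 15069348 to 17278826 counts, and the carcinoma markers Epcam, Krt8 and Krt18 were expressed in every library. Spread between libraries was not similar. The biological coefficient of variation was 6.47% in combination and 12.4% in curcumin, against 16.4% in swimming and 26.7% in control. The combination libraries correlated with one another at 0.991 to 0.992 (Pearson, log2 CPM), and counts differed between each pair by more than counting noise. Curcumin 2 stood apart from curcumin 1 (0.978) and had the highest summed level of macrophage, T cell, MHC class II and lysosomal genes of the 6 libraries. Medians of the leukocyte and inflammatory lists are therefore given with and without curcumin 2. Curcumin 3 correlated at 0.988 with both curcumin 1 and curcumin 2, closer than curcumin 1 did with curcumin 2, and counts differed by more than counting noise in each pair.

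In the fit of all 12 libraries, 116 of 13638 genes (0.851%) were called, meaning an adjusted p of at most 0.05. Of these, 49 (0.359%) rose with swimming and 67 (0.491%) fell, and 2451 genes had an unadjusted p under 0.05. Most changes were modest. The median absolute log2 fold change of called genes was 0.80, and 15 rose and 22 fell by at least 1 on the log2 scale. All 116 separated the 3 combination from the 3 curcumin libraries, beside 18.6% of all tested genes that did so upward and 18.5% downward. Over all tested genes the median log2 fold change was -0.0073 and 48.7% were positive. Without curcumin 2 the number of called genes was 3, and it was 5, 3 and 3 without combination 1, 2 and 3, and 8 without curcumin 3. In each of these 5 fits the called genes included Mapk6, Fmod and Nr4a1. With the combination libraries summed into 1, none was called (700 at unadjusted p under 0.05), whereas a fit of the 6 libraries alone called 2121 of 13277 (16%), including all 116. DESeq2 called 700, and the fit without control 2 called 715.

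**Figure D1:**
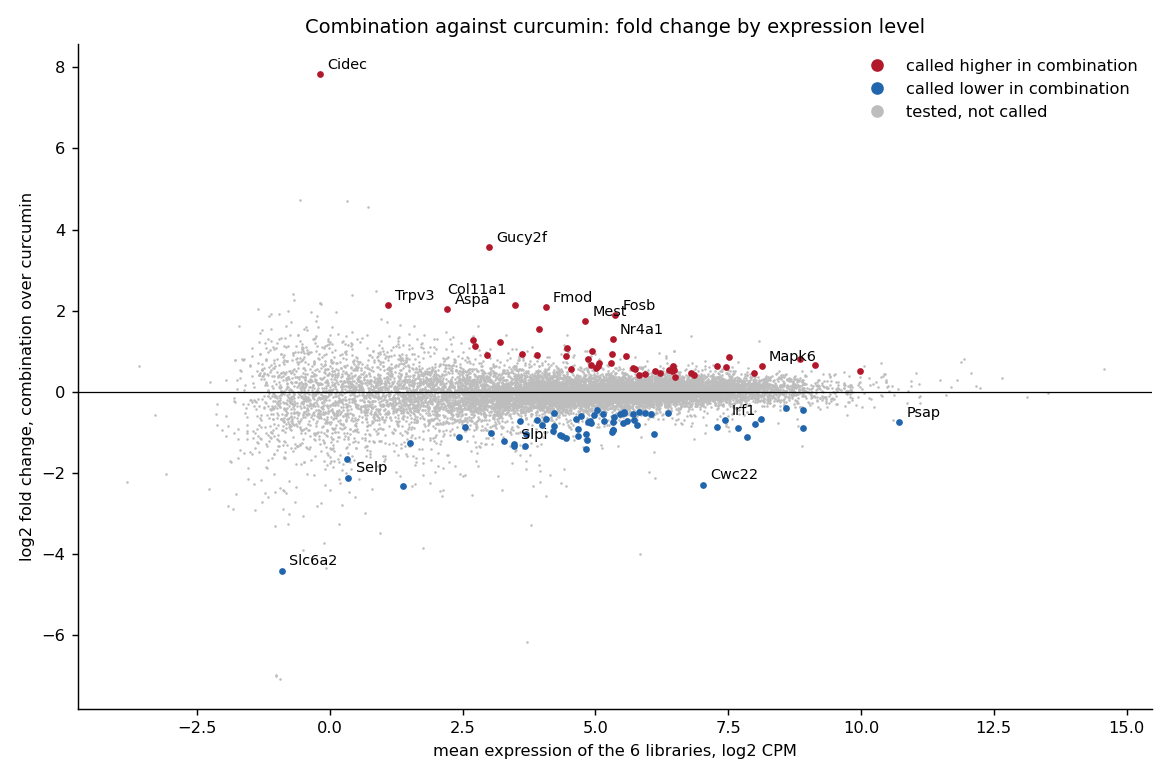
Log2 fold change of each tested gene, combination over curcumin (vertical axis), against its mean expression in the 6 libraries in log2 CPM (horizontal axis); red points are the 49 genes called higher in combination, blue points the 67 called lower. Most called genes lie within 1 log2 unit of 0 and at moderate to high expression. Among the called genes named here, Cidec, with 0 counts in curcumin, and Slc6a2 are the extremes. Genes that were not called can lie further out: the lowest tested chemokine or receptor gene is at -7.02.

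Immediate early and MAP kinase genes were among the called increases. Nr4a1 (ENSMUSG00000023034), an orphan nuclear receptor induced within minutes by cyclic AMP and stress signals, stood at 55.4, 62.4 and 53.0 CPM (counts scaled to library size) in combination and at 20.4, 26.8 and 22.5 CPM in curcumin. The groups lay far apart beside the spread within each. Nr4a1 rose 2.45-fold (log2 1.29 ± 0.15, SE, adjusted p = 0.00391). Fosb, an AP-1 subunit, stood at 65.7, 70.7 and 59.8 CPM in combination and at 15.6, 20.0 and 17.5 CPM in curcumin, a 3.7-fold rise (log2 1.89 ± 0.31, adjusted p = 0.0267). Egr1, a zinc finger factor of the same response, had 158, 180 and 144 CPM in combination and 60.2, 64.1 and 60.4 CPM in curcumin. Its groups did not overlap, but it missed the threshold over the 12 libraries (log2 1.39 ± 0.30, adjusted p = 0.0593) and passed in the fit of the 6 libraries (adjusted p = 2.75e-06). Fos itself overlapped between the groups, at 54.7, 49.7 and 56.3 CPM in combination and 29.7, 50.9 and 35.4 CPM in curcumin (log2 0.47 ± 0.55, adjusted p = 0.69).

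Of 37 tested genes on the immediate early list, 25 were positive with a median of 0.15, and 2 were called, both higher (Nr4a1 and Fosb). In the fit of the 6 libraries 13 passed as higher and 2 as lower, beside 8.08% and 7.89% of all genes. The list was not uniform: Dusp4, Ier2, Ccn2 and Egr2 had log2 values of 0.51 to 0.53, while Ier3 (-0.53), Klf2 (-0.49) and Arc (-0.40) were negative. None of these passed over the 12 libraries.

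Mapk6 (ENSMUSG00000042688), the atypical kinase ERK3, had the smallest p of all genes. It lies on the minus strand of chromosome 9 at 75276344 to 75317287, in the coordinates of the deposited table, whose build is given as GRCm39 in the processing notes. It stood at 332, 348 and 344 CPM in combination and at 213, 226 and 221 CPM in curcumin, so the spread within each group was small beside the gap between them (log2 0.64 ± 0.07, adjusted p = 0.00301). Dusp7, a dual-specificity phosphatase that inactivates MAP kinases, had 221, 255 and 227 CPM in combination and 123, 133 and 132 CPM in curcumin (log2 0.86 ± 0.13, adjusted p = 0.0167). Among 27 MAP kinases, dual-specificity phosphatases and Sprouty or Spred inhibitors, a family gathered after the values were seen, these 2 were called and the median was 0.03. Mapk3 (0.12), Mapk8 (-0.02) and Mapk14 (-0.03), members of the classical kinase groups, lay close to 0. Dyrk3, a kinase that dissolves stress granules, stood at 47.4, 59.4 and 48.5 CPM in combination and 28.0, 24.6 and 29.3 CPM in curcumin (log2 0.92 ± 0.13, adjusted p = 0.0117). Rbm3, a cold-inducible RNA-binding protein, also rose, to 544, 674 and 539 CPM in combination, against 303, 357 and 344 CPM in curcumin (log2 0.81, adjusted p = 0.0382).

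**Figure D2:**
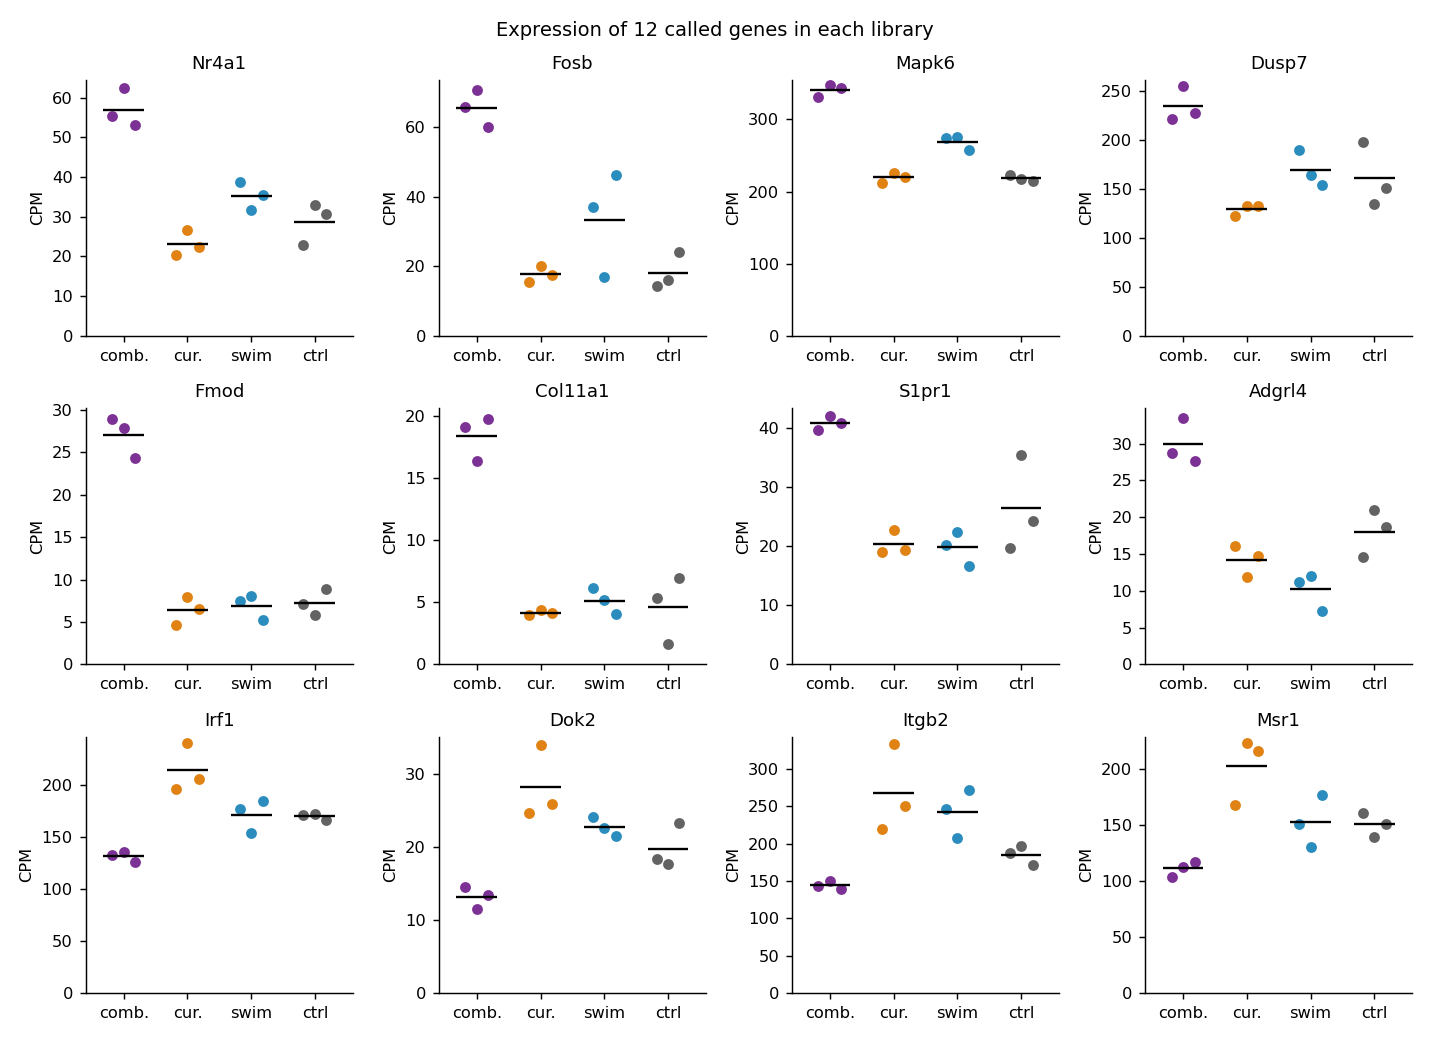
Expression of 12 called genes in CPM (vertical axes, from 0) in every library of the combination (comb.), curcumin (cur.), swimming (swim) and control (ctrl) groups; points are libraries 1 to 3 from left to right and bars are group means. In each panel, as for every called gene, the 3 combination points lie wholly above or wholly below the 3 curcumin points. In every panel drawn they also lie wholly above or wholly below all 9 other libraries. The 12 genes were picked from the called genes, and this does not hold for every called gene. Erbb3, for example, had 34.8 CPM in combination 2 and 35.4 CPM in control 1, and Trem2 had 12.1 CPM in combination 3 and 13.0 CPM in swimming 2. The share of all genes that show it was not counted.

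On the clock list 2 genes were called, an activator of the core loop that rose and an output factor that fell. Arntl, which encodes the activator BMAL1, stood at 18.9, 22.1 and 18.0 CPM in combination and at 10.9, 11.9 and 8.48 CPM in curcumin (log2 0.91 ± 0.18, adjusted p = 0.0388). Tef, a PAR-domain output factor, stood at 45.2, 40.1 and 41.7 CPM in combination and at 62.7, 69.0 and 54.8 CPM in curcumin, so it fell (log2 -0.55 ± 0.10, adjusted p = 0.0272). No combination library overlapped a curcumin library for either gene, as for every called gene. Of 18 tested clock genes these 2 were called, 10 were positive and the median was 0.06. The outputs Dbp (-0.98), Ciart (-0.71) and Per3 (-0.49) and the repressors Cry2 (-0.56) and Per2 (-0.35) had the sign of Tef, and Npas2 (1.16), Per1 (0.75) and Clock (0.24) that of Arntl, none of them called. Fitted on the 6 libraries alone, 4 passed as higher and 6 as lower, beside 8.08% and 7.89% of all genes. The hour at which tumours were taken is not given in the sources used here.

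Among extracellular matrix genes, a fibril-associated proteoglycan and a minor fibrillar collagen rose most. Fmod (fibromodulin), which binds collagen fibrils, stood at 29.0, 27.9 and 24.4 CPM in combination and at 4.70, 7.91 and 6.55 CPM in curcumin, a 4.25-fold rise (log2 2.09 ± 0.22, adjusted p = 0.00301). It was the 1 gene that also passed a test against a 1.5-fold change. Col11a1 (ENSMUSG00000027966, chromosome 3, 113824189 to 114014367 in the table), a chain of type XI collagen, which nucleates fibrils, stood at 19.1, 16.4 and 19.7 CPM in combination and at 3.98, 4.38 and 4.18 CPM in curcumin, a 4.39-fold rise (log2 2.14 ± 0.36, adjusted p = 0.0259). The abundant chains did not follow to that extent. Col1a1 had 2378, 2336 and 2225 CPM in combination and 1855, 2295 and 1965 CPM in curcumin (log2 0.18 ± 0.39, adjusted p = 0.84), and Col3a1 lay at 0.23.

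Of 26 tested collagens 20 were positive with a median of 0.23, and Col11a1 was the 1 called. Fitted on the 6 libraries alone, 10 passed as higher and 0 as lower, beside 8.08% and 7.89% of all genes. Among the 10 were Col27a1 (0.94), Col15a1 (0.66), Col4a2 (0.50) and Col4a1 (0.40), the last 3 of which belong to basement membranes. Of 39 matrix proteoglycans and glycoproteins 22 were positive with a median of 0.17, and Fmod alone was called. Aspn (asporin) stood at 14.7, 17.5 and 13.7 CPM in combination and at 9.65, 5.62 and 6.68 CPM in curcumin (log2 1.06 ± 0.66, adjusted p = 0.42). Aspn, Ogn (0.72) and Bgn (0.49) had positive values and Prelp (-0.58), Dcn (-0.39) and Lum (-0.33) negative ones, although all 6, like Fmod, encode small leucine-rich proteoglycans, and none of these 6 was called. The summed level of the fibroblast and pericyte list was 1628 to 1669 CPM in combination and 1401 to 1414 CPM in curcumin, and its part in the matrix values was not tested.

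Called increases included 5 genes of endothelial cells, grouped here after the values were seen. Of 23 tested endothelial adhesion and sprouting receptors, a family also gathered after the values were seen, 4 were called higher and 1 lower. Over all tested genes 0.359% were called higher and 0.491% lower. S1pr1 (ENSMUSG00000045092, chromosome 3, 115504082 to 115508721 in the table), a sphingosine-1-phosphate receptor that steadies vessels, stood at 39.6, 42.1 and 40.9 CPM in combination and at 19.0, 22.8 and 19.3 CPM in curcumin (log2 1.00 ± 0.18, adjusted p = 0.0272). Adgrl4, an adhesion receptor of sprouting vessels, stood at 28.7, 33.5 and 27.6 CPM in combination and at 16.1, 11.8 and 14.8 CPM in curcumin (log2 1.07 ± 0.19, adjusted p = 0.0272). Cd93, a receptor on endothelial and some myeloid cells, stood at 100.1, 113 and 109 CPM in combination and at 65.1, 75.2 and 68.4 CPM in curcumin (log2 0.62 ± 0.10, adjusted p = 0.0189). Thsd1, an endothelial membrane protein, rose by 0.90 ± 0.19 (adjusted p = 0.0432), and Spns2, the sphingosine-1-phosphate exporter, rose by 0.60 ± 0.11 (adjusted p = 0.028). For each of the 5 genes, as for every called increase, the lowest combination library lay above the highest curcumin library.

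Of 31 tested endothelial identity genes 26 were positive, with a median log2 of 0.52, and S1pr1 was the 1 called over the 12 libraries. In the fit of the 6 libraries 17 passed as higher and 0 as lower, beside 8.08% and 7.89% of all genes. Among the 17 were the junction genes Cdh5 (1.02) and Cldn5 (1.38), the transcription factors Erg (1.05) and Sox17 (1.00), Emcn (1.00) and the receptors Aplnr (1.15) and Flt4 (0.95). Cdh5, for example, had 116, 140 and 105 CPM in combination and 66.6, 51.2 and 60.1 CPM in curcumin (adjusted p = 0.12 over 12 libraries). Vwf (-0.16) and Eng (-0.11) were slightly negative, and Kdr, a VEGF receptor, lay at 0.38. The list summed to 1157 to 1242 CPM in combination and to 917 to 962 CPM in curcumin. In bulk RNA, more cells of a type and more RNA per cell cannot be told apart, and the same holds for the losses that follow. Selp (P-selectin), which endothelium displays to capture leukocytes, went the other way. It stood at 0.424, 0.606 and 0.379 CPM in combination and at 1.57, 2.48 and 2.19 CPM in curcumin, so it fell at a low level (log2 -2.12 ± 0.39, adjusted p = 0.0282).

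Called increases also included epithelial and junction genes. Esrp2, a splicing factor that maintains epithelial isoforms, stood at 26.04, 32.2 and 26.9 CPM in combination and at 15.6, 16.2 and 14.3 CPM in curcumin (log2 0.89 ± 0.17, adjusted p = 0.0302). Erbb3, the neuregulin receptor, stood at 39.8, 34.8 and 36.0 CPM in combination and at 20.9, 27.2 and 21.9 CPM in curcumin (log2 0.66 ± 0.13, adjusted p = 0.0397). The desmosomal cadherin Dsg2 (0.63 ± 0.12, adjusted p = 0.0369) and the adherens junction protein Plekha7 (0.43 ± 0.08, adjusted p = 0.0345) also rose, and were named after their values were seen. Of 29 epithelial identity genes 23 were positive with a median of 0.20, and Esrp2 was called. The mesenchymal transition list had the same sign, with 11 of 14 tested genes positive, a median of 0.30 and 0 called. In the fit of the 6 libraries 9 epithelial and 4 mesenchymal genes passed as higher and 0 of either list as lower. That fit called 8.08% of all genes higher and 7.89% lower. Epcam stood at 330.1, 331.5 and 333.0 CPM in combination and at 271, 254 and 259 CPM in curcumin (log2 0.34), whereas Krt8 overlapped between the groups (708, 676 and 682 CPM in combination, 728, 578 and 626 CPM in curcumin). Of 13 EGF-family receptors and ligands, gathered after the values were seen, Erbb3 was called, and Hbegf stood at 195, 198 and 194 CPM in combination and 152, 119 and 144 CPM in curcumin (log2 0.50 ± 0.11, adjusted p = 0.0563).

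Called decreases included genes of myeloid cell signalling. Itgb2 (ENSMUSG00000000290, chromosome 10, 77366086 to 77401542 in the table), the beta-2 integrin chain CD18 that leukocytes use to adhere and to bind complement-coated targets, stood at 144, 150 and 139 CPM in combination and at 219, 334 and 250 CPM in curcumin (log2 -0.89 ± 0.14, adjusted p = 0.019). Dok2, an inhibitory adaptor, fell by 1.10 ± 0.15 (adjusted p = 0.013), and Lcp1 (L-plastin), which bundles actin in leukocytes, by 0.67 ± 0.10 (adjusted p = 0.0171). As for every called decrease, the combination libraries lay below curcumin 1 and 3 as well as curcumin 2, which was the highest for Itgb2 (334 CPM).

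A further 3 signalling families were gathered around genes already seen to fall, so their counts describe these members and do not show how far the decrease reached. Of 15 Src-family and Syk kinases of leukocytes and their adaptors, 14 were negative (median -0.56, or -0.40 without curcumin 2) and 5 were called, all lower, among them Dok2, the B cell adaptor Pik3ap1 (-0.99), the cortactin-like Hcls1 (-0.71) and the phosphatase Ptpn6 (-0.56). Of 11 Fc receptors and ITAM adaptors 10 were negative (median -0.78, or -0.58 without curcumin 2) and 3 were called. Tyrobp (DAP12) stood at 23.4, 23.2 and 20.4 CPM in combination and at 30.3, 48.1 and 36.6 CPM in curcumin (log2 -0.78 ± 0.15, adjusted p = 0.0302). Fcer1g, the shared Fc receptor gamma chain, fell by 0.93 ± 0.16 (adjusted p = 0.0251). Trem2, a lipid receptor that signals through Tyrobp, stood at 13.1, 13.99 and 12.1 CPM in combination and at 20.6, 36.3 and 24.8 CPM in curcumin (log2 -1.06 ± 0.21, adjusted p = 0.0378). Of 7 NADPH oxidase subunits 6 were negative (median -0.55, or -0.45 without curcumin 2), and the cytosolic subunits Ncf1 (-0.72) and Ncf4 (-0.63) were called, while the catalytic subunit Cybb lay at -0.85 ± 0.24 (adjusted p = 0.11). Nox4, the form that fibroblasts and endothelium use, was the 1 positive value (0.71).

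Macrophage and lysosomal genes were also among the called decreases. Msr1, the class A scavenger receptor, stood at 104, 113 and 117 CPM in combination and at 168, 223 and 216 CPM in curcumin (log2 -0.86 ± 0.13, adjusted p = 0.0149). Mpeg1, the pore-forming perforin-2 of macrophages, fell by 1.11 ± 0.21 (adjusted p = 0.0388), and Hk3, a hexokinase of myeloid cells, fell to 15.7, 17.4 and 13.6 CPM in combination, against 28.2, 58.1 and 37.8 CPM in curcumin (adjusted p = 0.048). Of 29 tested macrophage genes 23 were negative (median -0.57) and 2 were called, Msr1 and Trem2. Adgre1 (F4/80) stood at 16.3, 15.9 and 16.1 CPM in combination and at 23.4, 39.7 and 25.1 CPM in curcumin (log2 -0.87 ± 0.24, adjusted p = 0.10). Cd68 overlapped, at 68.2, 80.0 and 59.8 CPM in combination and 66.0, 135 and 96.8 CPM in curcumin. The summed macrophage level was 3743, 3914 and 3646 CPM in combination and 4375, 7427 and 5592 CPM in curcumin, so the groups did not overlap and curcumin 2 was the highest. Its part in the falls of single genes was not tested. Without curcumin 2 the list median was -0.39, with 0 called in the fit of the 11 libraries. In the fit of the 5 remaining combination and curcumin libraries, 13 were lower and 1 higher. Of all 13419 genes tested in that fit, 1437 were called lower and 1381 higher.

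Psap, the precursor of the saposins that activate lysosomal sphingolipid breakdown, was an abundant transcript that fell. It stood at 1277, 1239 and 1263 CPM in combination and at 1727, 2644 and 2006 CPM in curcumin (log2 -0.75 ± 0.15, adjusted p = 0.0382). Ctsc (cathepsin C, which activates granule proteases) fell by 0.89 ± 0.16 (adjusted p = 0.028). Of 26 lysosomal hydrolases and activators, gathered after the values were seen, 23 were negative (median -0.25, or -0.16 without curcumin 2) and 3 were called, Psap and Ctsc among them. Lamp1 (0.02), a general lysosomal membrane protein, and Lamp2 (-0.04) lay close to 0. All 12 complement components and receptors were negative (median -0.69, or -0.45 without curcumin 2), and the anaphylatoxin receptor C5ar1 was called, at 27.0, 28.0 and 26.9 CPM in combination and 37.4, 48.6 and 48.1 CPM in curcumin (log2 -0.71 ± 0.14, adjusted p = 0.0397).

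**Figure D3:**
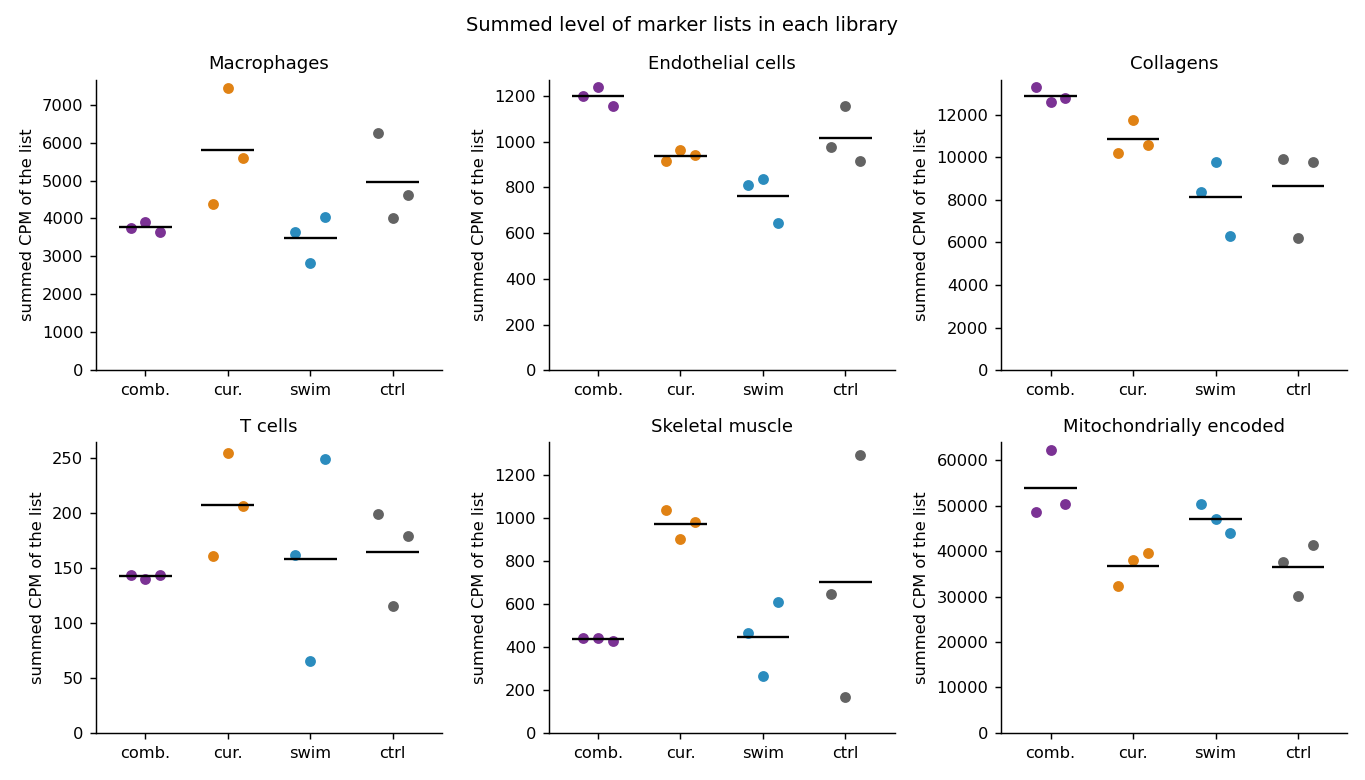
Summed CPM of 6 marker lists (vertical axes, from 0) in every library of the combination (comb.), curcumin (cur.), swimming (swim) and control (ctrl) groups; points are libraries 1 to 3 from left to right and bars are group means. Combination and curcumin do not overlap in any of the 6 panels, and curcumin 2 is the highest of the 6 for macrophages (7427 CPM) and T cells (255 CPM). The 6 lists were picked from 47, and separation is not particular to them. The immediate early list also separates the groups (3725 to 3898 CPM in combination, 3240 to 3362 CPM in curcumin). Others overlap, such as natural killer cells and cytotoxicity (225 to 231 CPM in combination, 146 to 343 CPM in curcumin).

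On the interferon-gamma and MHC lists most values were negative and 1 gene was called. Irf1 (ENSMUSG00000018899), which carries interferon-gamma signals to antigen presentation genes, stood at 133, 135 and 126 CPM in combination and at 196, 240 and 206 CPM in curcumin (log2 -0.71 ± 0.09, adjusted p = 0.011). Of 31 interferon-gamma response genes 26 were negative (median -0.33, or -0.125 without curcumin 2) and Irf1 was the 1 called. The list summed to 4795, 4909 and 4927 CPM in combination and to 4770, 6555 and 5554 CPM in curcumin, so the groups overlapped: curcumin 1 lay below every combination library and curcumin 2 was the highest. In the fit of the 6 libraries 11 passed as lower and 0 as higher, beside 7.89% and 8.08% of all genes. Among the 11 were Socs1 (-0.92), Icam1 (-1.04) and Ciita (-0.56). The guanylate-binding proteins Gbp2 (-0.07), Gbp3 (0.06) and Gbp7 (-0.08) lay near 0. The 26 type I interferon genes had a median of 0.01 with 14 positive and 0 called. In the fit of the 6 libraries 1 was higher and 3 lower, beside the same shares of all genes. MHC class II genes were negative for 11 of 12 (median -0.46, 0 called, 3 lower over the 6 libraries). They summed to 2490, 2412 and 2402 CPM in combination and to 2667, 4280 and 3285 CPM in curcumin. Without curcumin 2 their median was -0.425 over the 11 libraries and -0.328 over the 5 remaining combination and curcumin libraries.

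Of 31 NF-kB targets 24 were negative (median -0.29, or -0.28 without curcumin 2, 0 called over 12 libraries, 15 lower and 1 higher over 6). Of 34 chemokines and receptors 29 were negative (median -0.57, 0 called, 13 lower over 6), with Ccl3 at 1.94, 2.60 and 2.28 CPM in combination and 6.27, 13.0 and 8.996 CPM in curcumin. The chemokine median was -0.35 without curcumin 2. Neutrophil genes were negative for 15 of 18 (median -1.22, or -0.81 without curcumin 2, 0 called), with S100a8 at 1.39, 1.33 and 1.39 CPM in combination and 3.92, 12.2 and 6.04 CPM in curcumin. T cell genes were negative for 17 of 20 (median -0.66, or -0.42 without curcumin 2, 0 called). Other lymphoid lists were mixed. Natural killer and cytotoxicity genes were negative for 9 of 16 and B and plasma cell genes for 2 of 6, with 0 called in either list. The natural killer list summed to 225 to 231 CPM in combination and to 146, 343 and 227 CPM in curcumin, so the groups overlapped. Over the 6 libraries alone, 8 neutrophil and 7 T cell genes passed as lower. That fit called 7.89% of all genes lower and 8.08% higher.

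In the eicosanoid pathway 2 terminal synthases fell. Tbxas1, thromboxane A synthase, stood at 18.2, 16.9 and 17.1 CPM in combination and at 34.9, 45.0 and 39.4 CPM in curcumin (log2 -1.19 ± 0.17, adjusted p = 0.0149). Ptges, the inducible prostaglandin E synthase, stood at 21.8, 22.2 and 20.7 CPM in combination and at 37.9, 36.5 and 34.8 CPM in curcumin (log2 -0.75 ± 0.12, adjusted p = 0.019). Neither gene overlapped between the groups, as for every called gene. The upstream enzymes had other values: Ptgs2 (COX-2) stood at 179, 180.4 and 179 CPM in combination and at 140.2, 180 and 149 CPM in curcumin (log2 0.20 ± 0.27, adjusted p = 0.73), and Pla2g4a, which releases arachidonic acid, lay at -0.17. Of 21 tested pathway genes 17 were negative (median -0.33, or -0.17 without curcumin 2) and those 2 were called.

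Several called genes belong to no list. Slpi, a secreted inhibitor of leukocyte proteases, stood at 6.96, 6.24 and 6.07 CPM in combination and at 13.99, 17.32 and 15.9 CPM in curcumin (log2 -1.29 ± 0.17, adjusted p = 0.011). Tgm2, a transglutaminase that crosslinks proteins, fell by 0.79 ± 0.12 (adjusted p = 0.019). Mest, an imprinted gene of mesodermal tissue, stood at 45.8, 39.3 and 44.4 CPM in combination and at 16.6, 10.4 and 11.7 CPM in curcumin (log2 1.74 ± 0.30, adjusted p = 0.0267). Aspa, aspartoacylase, rose at a low level, to 7.51, 6.90 and 7.97 CPM in combination, against 2.29, 1.83 and 1.29 CPM in curcumin (log2 2.04 ± 0.29, adjusted p = 0.013). Gucy2f, best known as a retinal guanylate cyclase, had 12.2, 15.2 and 16.7 CPM in combination and 0.121, 2.29 and 1.35 CPM in curcumin (log2 3.56 ± 0.71, adjusted p = 0.048). Trpv3, a heat-activated channel of epithelia, rose by 2.14 ± 0.39 (adjusted p = 0.0272) and Sorbs2, a cytoskeletal adaptor, by 1.54 ± 0.30 (adjusted p = 0.0382). Pthlh, parathyroid hormone-related peptide, stood at 34.8, 39.0 and 36.7 CPM in combination and 18.1, 23.9 and 21.3 CPM in curcumin (log2 0.81 ± 0.14, adjusted p = 0.0267). Cwc22, a splicing factor with near-identical copies among which counts may be split, had 45.1, 42.2 and 45.2 CPM in combination and 186, 237 and 227 CPM in curcumin (log2 -2.29 ± 0.30, adjusted p = 0.0149).

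Some changes rested on few counts. Cidec, a lipid droplet protein of adipocytes, had 27, 27 and 32 counts in combination and 0 in each curcumin library, at least 27.9-fold higher with curcumin set at 3 counts over the group. Adipoq, which encodes adiponectin, had 36 counts in combination and 0 in curcumin, at least 11.7-fold higher. Cfd (adipsin) had 155 counts in combination and 6 in curcumin (ratio 25.1, exact 95% interval 11.3 to 69.4), but Plin1 had 24 in combination and 4 in curcumin (ratio 5.83, 2.003 to 23.1). Of 16 tested adipocyte genes 11 were positive (median 0.37) and Cidec alone was called. Slc6a2, the noradrenaline transporter, had 2 counts in combination and 49 in curcumin, 25.2-fold lower (exact 95% interval 6.62 to 214). The intervals cover counting error only. Whether the tumour pieces held fat or muscle from the body wall is not given in the labels.

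All 28 tested skeletal muscle genes had negative values (median -1.62). The list summed to 429 to 442 CPM in combination and 901 to 1034 CPM in curcumin. None of the 28 was called over the 12 libraries, in which the control libraries alone ran from 167 to 1293 CPM, and 19 passed as lower in the fit of the 6. Acta1, skeletal actin, stood at 25.5, 24.7 and 27.6 CPM in combination and at 130, 99.7 and 111 CPM in curcumin (log2 -2.13 ± 1.04, adjusted p = 0.32). All 10 mitochondrially encoded genes had positive values (median 0.57, 0 called, 7 higher over the 6 libraries). They made up 4.86%, 6.10% and 5.03% of counts in combination and 3.34%, 3.87% and 4.06% in curcumin. This share can follow RNA quality as well as expression, and its part in the other results was not tested. The 27 nuclear genes of oxidative phosphorylation had a median of -0.13 with 0 called (5 lower over the 6 libraries). The fit of the 6 libraries called 8.08% of all genes higher and 7.89% lower.

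**Figure D4:**
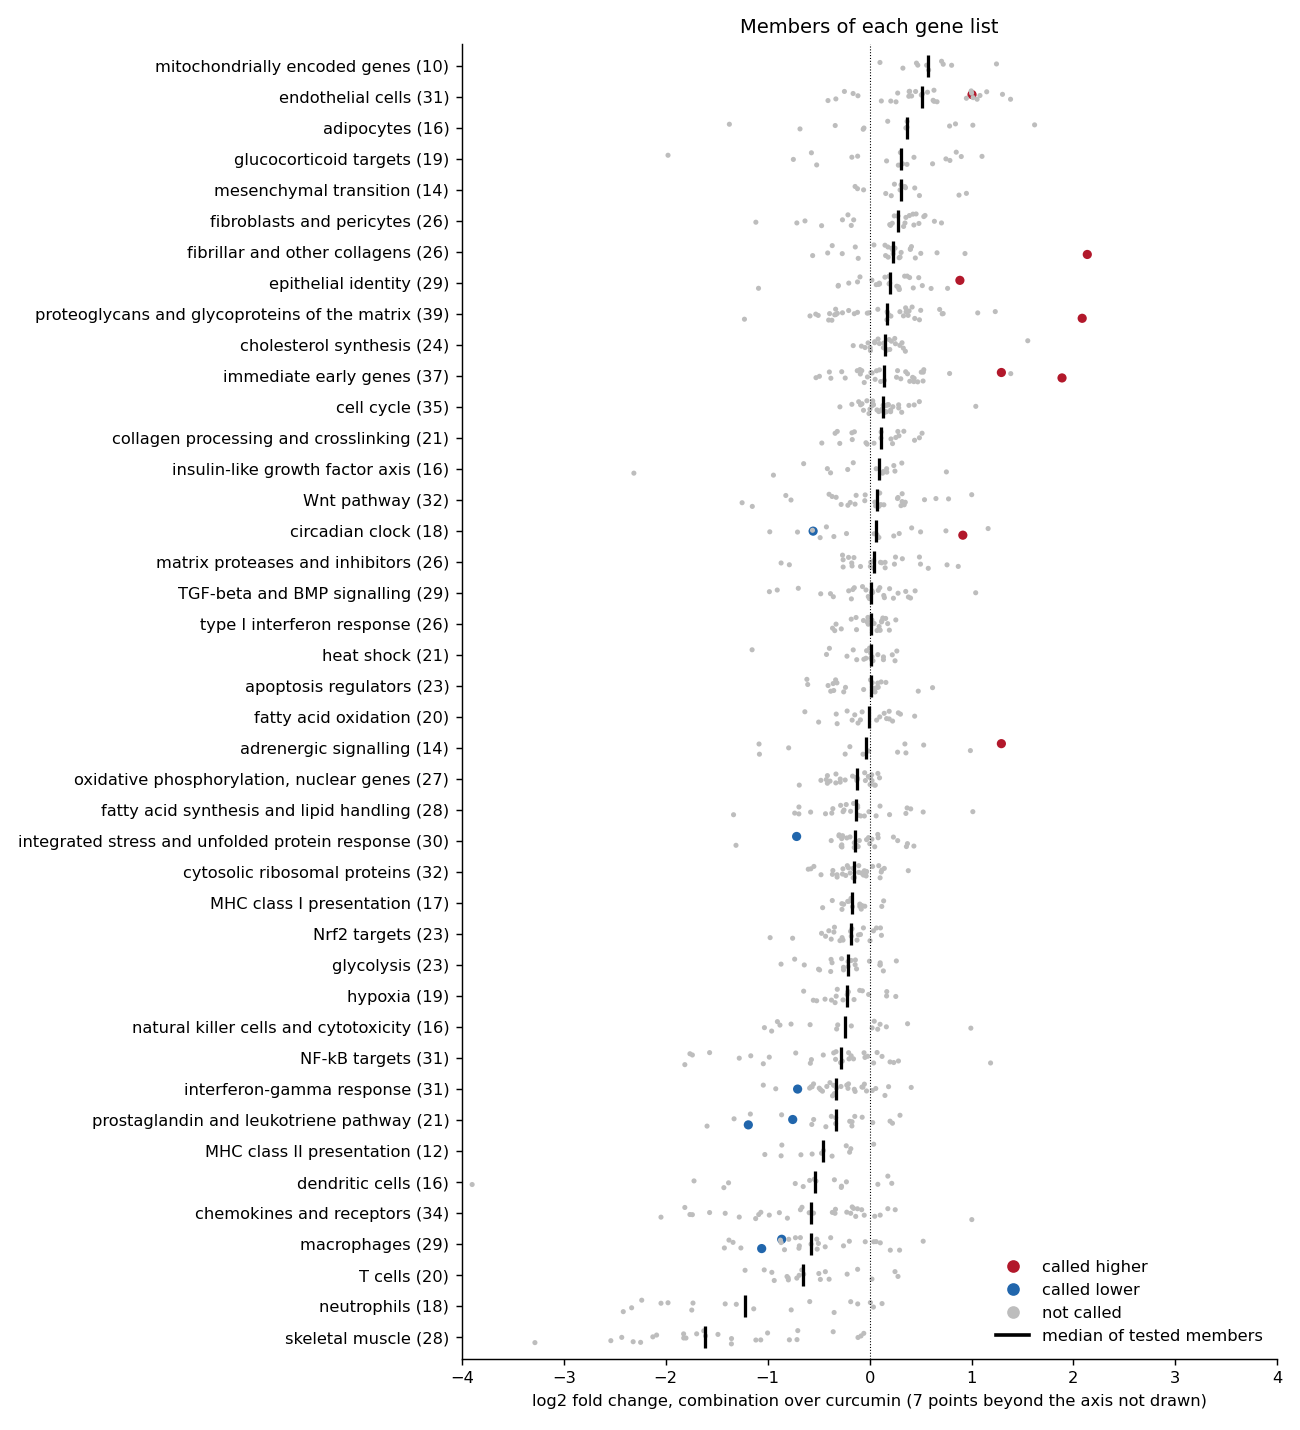
Log2 fold changes, combination over curcumin (horizontal axis), of the tested members of 42 gene lists (rows, number tested in brackets); each point is a gene, red called higher, blue called lower, grey not called, and black bars are list medians. Mitochondrially encoded and endothelial genes have the highest medians (0.57 and 0.52) and skeletal muscle and neutrophil genes the lowest (-1.62 and -1.22), and 7 points beyond 4 log2 units are not drawn.

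No gene of the hypoxia, glycolysis, glucocorticoid target or cell cycle lists was called. Of 19 hypoxia genes 16 were negative (median -0.22), with Vegfa at 189, 187 and 183 CPM in combination and 199.9, 234 and 217 CPM in curcumin (log2 -0.22 ± 0.19, adjusted p = 0.58). Of 23 glycolysis rows 18 were negative (median -0.21, 10 lower over the 6 libraries), with Hk2 at 118, 109 and 121 CPM in combination and 160, 146 and 146 CPM in curcumin (log2 -0.38 ± 0.13, adjusted p = 0.15). Glucocorticoid targets were positive for 13 of 19 (median 0.31, 0 called, 7 higher and 4 lower over the 6 libraries), with Sgk1 at 234, 235 and 227 CPM in combination and 138, 164 and 152 CPM in curcumin (log2 0.62 ± 0.17, adjusted p = 0.10). On the cell cycle list 27 of 35 genes were positive (median 0.13, 0 called, 7 higher and 1 lower over 6). Over the 6 libraries, 8.08% of all genes passed as higher and 7.89% as lower.

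Swimming was also compared with control, in mice without curcumin, and the difference between its effects with and without curcumin was tested as an interaction. The 2 comparisons share no library. Swimming against control called 42 genes (0.308%), and 3 were called in both, Slc6a2, Erbb3 and Ptbp2. The count for swimming against control was 0 without swimming 1 (1354 genes at unadjusted p under 0.05), 0 with limma voom (962 genes) and 603 without control 2. Of the 116 genes called with curcumin, 75 had the same sign without it (32 of 49 higher and 43 of 67 lower), beside 57.5% of all tested genes. The interaction called 34 genes (0.249%), 22 positive (0.161%) and 12 negative (0.088%), and 20 of the 34 were among the 116. The interaction includes combination minus curcumin, so genes called in that comparison are favoured and the overlap is partly built in. The interaction count was 0 without swimming 1 (1364 genes at unadjusted p under 0.05), 1 without each combination library and without curcumin 3, 6 without curcumin 2, and 455 without control 2.

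Called differences between the 2 effects included endothelial genes. Ptprb (VE-PTP), a phosphatase that restrains the Tie2 receptor, stood at 32.8, 29.0 and 32.7 CPM in combination and 25.3, 18.2 and 22.9 CPM in curcumin, but at 12.5, 11.8 and 13.6 CPM in swimming and 27.0, 28.1 and 30.8 CPM in control. It fell in swimming against control (log2 -1.18, adjusted p = 0.0051), was not called with curcumin (0.51, adjusted p = 0.077), and the difference was 1.69 ± 0.18 (adjusted p = 0.00662). Of the 31 endothelial genes, 26 were positive with curcumin and 4 without it (medians 0.52 and -0.63), and 6 had a called interaction, all positive: Ptprb, Plvap, Aplnr, Pecam1, S1pr1 and Flt4. Aplnr, the apelin receptor, stood at 32.0, 27.0 and 29.0 CPM in combination and 13.9, 12.4 and 13.4 CPM in curcumin, against 2.41, 5.42 and 1.82 CPM in swimming and 7.33, 7.58 and 12.2 CPM in control. The summed endothelial level was 1157 to 1242 CPM in combination and 917 to 962 CPM in curcumin, and 646 to 838 CPM in swimming and 915 to 1156 CPM in control.

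Erbb3 was called in opposite directions in the 2 comparisons, with the call without curcumin lost when swimming 1 was left out. It stood at 22.2, 21.4 and 17.2 CPM in swimming and 35.4, 34.6 and 29.5 CPM in control, a fall of 0.71 ± 0.13 (adjusted p = 0.0487) where it rose with curcumin (difference 1.37 ± 0.19, adjusted p = 0.0216). Fmod did not separate swimming (7.499, 8.06 and 5.20 CPM) from control (7.15, 5.86 and 8.87 CPM), and its difference was 2.16 ± 0.31 (adjusted p = 0.0216). Itgb2 had 247, 208 and 271 CPM in swimming and 188, 197 and 171 CPM in control, a positive value where it fell with curcumin (difference -1.28 ± 0.20, adjusted p = 0.0263). Slpi (-1.63), Dok2 (-1.30), Lcp1 (-0.93), Ptges (-1.05) and Irf1 (-0.72) likewise had called negative differences, each falling with curcumin and at 0.01 to 0.34 without it. Nr4a1 and Fosb had positive values in both comparisons (0.29 and 0.88 without curcumin), and their differences were not called (adjusted p = 0.080 and 0.43). Hypoxia genes had medians of -0.22 with and 0.43 without curcumin and glycolysis genes -0.21 and 0.37, with no called interaction in either list.

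**Figure D5:**
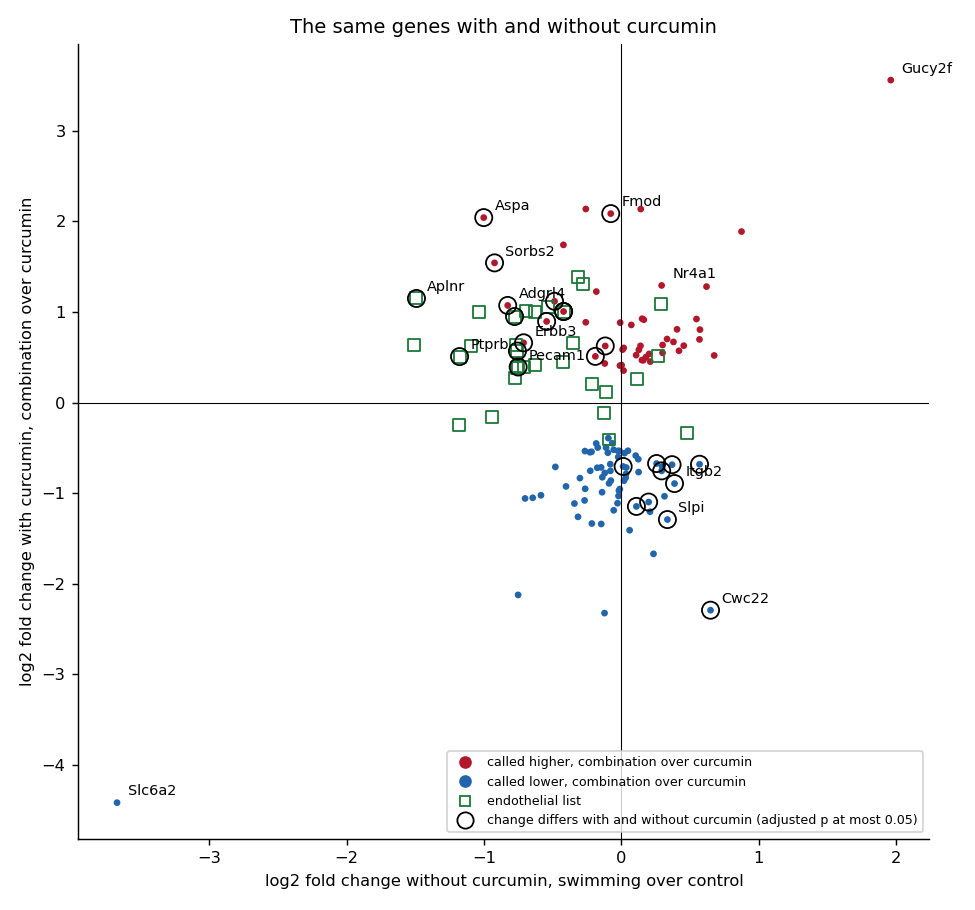
Log2 fold change of swimming with curcumin (combination over curcumin, vertical axis) against swimming without curcumin (swimming over control, horizontal axis) for the genes called in combination over curcumin (red higher, blue lower) and the endothelial list (green squares); black circles mark genes whose difference between the axes was called. The endothelial squares lie mostly in the upper left, positive with curcumin and negative without it, and Cidec, with 0 counts in curcumin, is not drawn.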

How the data were processed

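RNA of 12 tumour libraries, 3 in each of 4 groups, was measured by the authors as whole read counts per gene, and the deposited table also holds FPKM values. The deposited FPKM could be recomputed from the counts, gene lengths and library totals for 184877 of 184877 values (relative tolerance 1e-05), so FPKM served only as that check. Per the submitters' processing notes, cutadapt, TopHat2, HISAT2, HTSeq 0.9.1 and DESeq 1.30.0 were used with build GRCm39, whereas the labels' protocol names HISAT2 2.0.5 and mm9. Strand and the treatment of shared reads are not given in the sources used here, so overlapping genes and near-identical copies are uncertain. Per the labels, 30 mice were divided into 5 groups of 5, which leaves 5 unaccounted for, and the group without tumours was not analysed here.

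Groups follow the sample titles and the protocol. Counts were filtered with filterByExpr (minimum count 10, minimum total 15), scaled by TMM and fitted with robust quasi-likelihood F-tests in edgeR 4.0.16 (R 4.3.3) over all 12 libraries, leaving 8 residual degrees of freedom. Adjusted p-values are Benjamini-Hochberg values over all 13638 genes, with a threshold of 0.05. CPM values are counts scaled to library size after TMM. Contrasts were combination against curcumin, swimming against control, and their difference. A floor of 3 counts, summed over the group, replaced a group at 0, and exact 95% intervals were taken on summed counts. The pipeline was tested on simulated data. Named genes were the 15 called genes of largest change and the 10 of smallest p per direction with at least 1 CPM and no overlap between groups, plus called members of 47 gene lists. A further 10 families, and called genes outside the rule (Rbm3, Pthlh, Spns2, Tead1 and the members of those families) and list members given as examples, were chosen after the values were seen. A few genes covered by the rule are not reported here. The comparison and all lists were chosen with earlier results of these data known. Alternatives were DESeq2 1.42.0, RLE scaling, other filters, a fit of the 6 libraries, a replicate block, a test against 1.5-fold, limma 3.58.1 voom with group weights, the combination libraries summed, and each library left out. Coordinates of promoters come from RefSeq on GRCm38.p6.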

Additional observations from a re-analysis of the deposited data

Results flagged for a closer look

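For the 22 genes given here, all named by the rule or members of a list, the effect of swimming with curcumin differed from its effect without curcumin by the interaction test (edgeR, adjusted p at most 0.05). Differences are log2, effect with curcumin minus effect without. Among vessel genes the differences were positive: Ptprb 1.69, Adgrl4 1.90, Plvap 1.32, Aplnr 2.64, Pecam1 1.14, S1pr1 1.43, Flt4 1.73, Thsd1 1.44 and Cd93 0.74. Each of these 9 was negative in swimming against control, between -0.12 (Cd93) and -1.49 (Aplnr), and positive in combination against curcumin.

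Other positive differences were Fmod 2.16, Aspa 3.04, Sorbs2 2.46, Palmd 1.60 and Erbb3 1.37. Among leukocyte and inflammatory genes the differences were negative: Slpi -1.63, Itgb2 -1.28, Dok2 -1.30, Lcp1 -0.93, Irf1 -0.72, Ptges -1.05 and Alox5 -2.998. Alox5, 5-lipoxygenase, stood at 2.12, 0.969 and 1.45 CPM in combination and 3.68, 4.25 and 3.53 CPM in curcumin, and at 6.23, 10.4 and 3.39 CPM in swimming and 1.88, 2.49 and 1.93 CPM in control. Cwc22 differed by -2.94 and has near-identical copies. None of these calls was kept without swimming 1, where the interaction called 0 genes.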

How the results depend on the processing

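No called value of a named gene changed sign under any of 29 other settings, but the number of calls depended on how spread was estimated. Combination against curcumin called 116 genes in the main fit and 113 to 135 with no robust moderation, RLE scaling, a minimum mean count of 50 or no filter. It called 700 with DESeq2, 2121 in a fit of the 6 libraries, 1933 with limma voom and a weight per group, 1 against a 1.5-fold change and 0 with the combination libraries summed. Leaving out 1 library gave 3 to 715 calls over 12 libraries (77 without swimming 1, 210 without swimming 2, 205 without swimming 3, 225 without control 1) and, in fits of the 6 libraries added after the data were seen, 1178, 743 and 928 without combination 1, 2 and 3 and 2493, 2818 and 1056 without curcumin 1, 2 and 3. The interaction (34) called 217 with DESeq2, 0 against a 1.5-fold change, 0 with combination libraries summed and 19 without robust moderation (added later), and 0 to 455 without 1 library. Swimming against control (42) called 318 with DESeq2, 0 against a 1.5-fold change, 0 with voom, 3 with combination libraries summed, and 0 to 603 without 1 library. Fits of 6 libraries were made only for combination against curcumin. Of 49 named called genes, 3 (Mapk6, Fmod and Nr4a1) kept their call without each of 12 libraries in turn, and 0 with the combination libraries summed, where the lone sample is assumed to vary like the other groups.

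Replicate numbers gave little sign of pairing the samples, a weak check with 3 libraries per group. Deviations of same-numbered combination and curcumin libraries correlated at 0.024, 0.009 and 0.05, and those of differently numbered libraries at -0.071 to 0.024. With the replicate block, combination against curcumin called 28 genes over 12 libraries and 1788 over 6, the interaction 11 and swimming against control 4.

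Precision is limited by 3 libraries per group, by the wide spread of the control libraries, which enters every main p-value, and by counts under 10 per library for genes near 0.5 CPM.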

Other observations

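Some genes outside the lists described so far also moved. Depdc7 stood at 63.0, 60.0 and 63.3 CPM in combination and at 31.4, 34.6 and 35.1 CPM in curcumin (log2 0.88 ± 0.15, adjusted p = 0.0251). Ubqln2, an ubiquilin that delivers proteins to the proteasome, rose by 0.58 ± 0.09 (adjusted p = 0.019), and Mid2, a ubiquitin ligase, by 0.70 ± 0.11 (adjusted p = 0.019). Tead1, the DNA-binding partner of YAP, stood at 277, 321 and 289 CPM in combination and at 218, 195 and 228 CPM in curcumin (log2 0.47 ± 0.08, adjusted p = 0.0272). Sdf2l1, a chaperone cofactor of the endoplasmic reticulum, fell by 0.72 ± 0.14 (adjusted p = 0.0397), the 1 called gene of 30 on the unfolded protein list (median -0.14). Heat shock genes had a median of 0.01 with 0 of 21 called, and 0 also in the fit of the 6 libraries.

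Curcumin 3 held the middle value of its group for 51.6% of 9629 genes with a mean of at least 10 CPM, and for 32 of 47 summed gene lists. Curcumin 1 held it for 27.1% and curcumin 2 for 21% of genes. In combination the shares were 36.7%, 28.6% and 34.3% for libraries 1, 2 and 3. Whether curcumin 3 is a sample separate from curcumin 1 and 2 is not given in the labels. With fewer than 3 independent curcumin samples the p-values here would be too small. Without curcumin 3, combination against curcumin called 8 genes. Control 3 held the middle for 50.3% of genes in its group.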
